A study of Mus musculus with 6 samples.

Results

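Tuft cells are rare chemosensory cells of the intestinal epithelium, and the 10 genes described here are those by which they are commonly recognised or through which they signal. The genes were Dclk1, Trpm5, Pou2f3, Avil, Gfi1b, Il25, Ptgs1, Alox5, Alox5ap and Hpgds, chosen by name, and all 10 were among the 24517 genes of the tables. They were read in colon RNA in 3 samples of control mice (Nsd2fl/fl, with floxed alleles and no deletion) and 3 samples of mice with an intestine-specific knockout of NSD2 (Nsd2ΔIE, floxed alleles deleted by Villin-Cre, which is active in the intestinal epithelium and not in the other layers of the gut wall). NSD2 is a histone methyltransferase that places H3K36me2. Both groups were on the C57BL/6J background and had received a high-fat cholesterol diet (HFCD). The labels give 16 weeks of this diet and the methods 18 weeks, the methods describe male littermates aged 7 to 8 weeks at the start, and no group on a normal diet was analysed here.

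Tuft cells depend on the transcription factor Pou2f3, and they sense luminal metabolites through a taste-type cascade that ends in the cation channel Trpm5. Upon stimulation they release the cytokine IL-25, which acts on group 2 innate lymphoid cells, and lipid mediators made from arachidonic acid, namely leukotrienes and prostaglandin D2. IL-13 from the lymphoid cells in turn favours the formation of tuft and goblet cells, a loop known as the tuft cell to type 2 circuit. Several of the 10 genes are also used elsewhere in the colon: Dclk1 in neurons, Ptgs1 in stromal and muscle cells, Alox5 and Alox5ap in myeloid cells, Hpgds in mast cells and macrophages, and Gfi1b in the megakaryocyte and erythroid lineages.

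To show where these genes are read from, the 250 bases before an annotated transcription start are given for 4 members. They were taken from RefSeq for the GRCm38.p6 build. Windows were given for 7 of the 10 members, with 2 for Dclk1. Trpm5 and Ptgs1 are shown because they had the smallest p-values, and Dclk1 because it has 2 windows. The gene counts do not separate transcripts from different start sites of a gene. Hpgds is shown because it held the single match to the octamer ATGCAAAT, the motif bound by POU-domain factors, the family of Pou2f3. The match is in capitals, and all other bases are in lower case, 5′ to 3′.
The Trpm5 window lies at chr7:143094643-143094892, minus strand.
Trpm5: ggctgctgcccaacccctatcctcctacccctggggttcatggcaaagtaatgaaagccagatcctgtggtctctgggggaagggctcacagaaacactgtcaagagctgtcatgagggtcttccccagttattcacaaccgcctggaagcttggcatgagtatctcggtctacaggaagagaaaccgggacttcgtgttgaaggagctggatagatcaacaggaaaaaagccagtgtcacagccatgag
The Ptgs1 window lies at chr2:36230176-36230425, plus strand.
Ptgs1: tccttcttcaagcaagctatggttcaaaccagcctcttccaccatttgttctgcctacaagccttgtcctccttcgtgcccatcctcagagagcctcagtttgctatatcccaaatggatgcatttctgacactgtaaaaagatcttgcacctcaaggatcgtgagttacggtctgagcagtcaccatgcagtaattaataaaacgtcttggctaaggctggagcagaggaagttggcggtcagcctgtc
The Dclk1 windows lie at chr3:55242114-55242363, plus strand, and at chr3:55461478-55461727, plus strand.
Dclk1 upstream start: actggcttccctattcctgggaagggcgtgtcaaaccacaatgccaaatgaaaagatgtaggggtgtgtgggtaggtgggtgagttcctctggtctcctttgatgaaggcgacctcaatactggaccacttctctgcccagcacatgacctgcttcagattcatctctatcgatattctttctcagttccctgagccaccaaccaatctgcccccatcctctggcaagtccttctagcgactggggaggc
Dclk1 downstream start: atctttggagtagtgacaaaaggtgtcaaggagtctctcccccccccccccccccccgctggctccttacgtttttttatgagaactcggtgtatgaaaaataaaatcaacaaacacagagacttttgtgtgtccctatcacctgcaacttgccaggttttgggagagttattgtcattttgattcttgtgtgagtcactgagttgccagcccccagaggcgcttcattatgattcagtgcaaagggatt
The Hpgds window lies at chr6:65144731-65144980, minus strand.
Hpgds: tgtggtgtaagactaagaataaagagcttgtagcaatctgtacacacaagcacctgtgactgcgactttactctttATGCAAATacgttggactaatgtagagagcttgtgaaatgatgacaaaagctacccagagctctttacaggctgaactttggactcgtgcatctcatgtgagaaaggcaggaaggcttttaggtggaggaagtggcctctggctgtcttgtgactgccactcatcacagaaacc

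The octamer in Hpgds began 174 bases before the start that this window belongs to. Of the windows shown, only that of Trpm5 lies wholly outside the RefSeq span of its gene. The spans of Hpgds, Ptgs1 and Dclk1 begin upstream of the starts used, at chr6:65144981, chr2:36216742 and chr3:55242303. The other windows thus lie, wholly or in part, within the gene and precede an internal start. Over windows that also took in the first 50 transcribed bases, the octamer was found on either strand in 1 of the 8 windows of members and in 570 of all 32851 windows (1.74%). The E-box CANNTG, searched on both strands as a common reference motif whose matches can share bases with an octamer, was found in 5 of the 8 and in 72.3% of all. These matches describe the letters of the windows only. Pou2f3, Il25 and Alox5ap were not among the windows.

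Before the results, the libraries themselves were examined. Totals were 38041832 to 38604680 counts. Nsd2 was at 47.8, 59.1 and 68.9 CPM (counts relative to the library total, after TMM scaling) in the Nsd2fl/fl libraries and at 24.5, 23.1 and 27.5 CPM in the Nsd2ΔIE libraries (log2 fold change -1.23, SE 0.159, adjusted p = 0.302). Colon tissue also holds cells in which Villin-Cre is not active. The sex-linked genes did not match the methods. All 3 Nsd2ΔIE libraries held 21217 to 24234 counts of Xist and 0 or 1 count of each of Ddx3y, Eif2s3y, Kdm5d and Uty, whereas the Nsd2fl/fl libraries held 0 to 4 counts of Xist and 868 to 2205 counts of each of these Y-linked genes. Genotype and this sex pattern therefore cannot be told apart in any value below. These 5 genes were also all the genes with an adjusted p under 0.05 in edgeR, while DESeq2 gave 455 genes. A further split ran across the groups: Hoxb13, a gene of the distal colon, was at 310 to 365 CPM in Nsd2fl/fl replicates 1 and 3 and Nsd2ΔIE replicate 1, and at 0.706 to 26.2 CPM in Nsd2fl/fl replicate 2 and Nsd2ΔIE replicates 2 and 3, which also formed opposite sides of the first principal component (51% of the variance).

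To determine how the tuft cell genes differed between genotypes, the libraries were compared gene by gene. The 9 members that passed the filter on low counts all had a higher fitted level in Nsd2ΔIE colons, with log2 fold changes from 0.11 (Alox5ap) to 0.91 (Ptgs1) and a median of 0.45, beside a median of -0.04 over all 16347 genes tested. In Dclk1, Trpm5, Pou2f3, Avil and Ptgs1, every Nsd2ΔIE library lay above every Nsd2fl/fl library. That was 5 of 9 members, beside 11.4% of all genes, while 0 members lay entirely below, beside 7.28% of all genes. An unadjusted p under 0.05 was reached by 4 members with the higher level in Nsd2ΔIE, beside 8.15% of all genes, and by 0 with the lower level, beside 2.96%. Without Nsd2ΔIE replicate 2, 2 members reached it with the higher level, beside 789 of the 16347 genes. After adjustment over all genes 0 members passed with edgeR, beside 0.0306% of all genes, so none of these differences is called. With the Wald test of DESeq2, 2 members passed in the higher direction, beside 2.47% of all genes, and with limma-voom 0 passed. In bulk tissue, a different number of tuft cells and a different amount of RNA per tuft cell cannot be told apart.

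**Figure D1:**
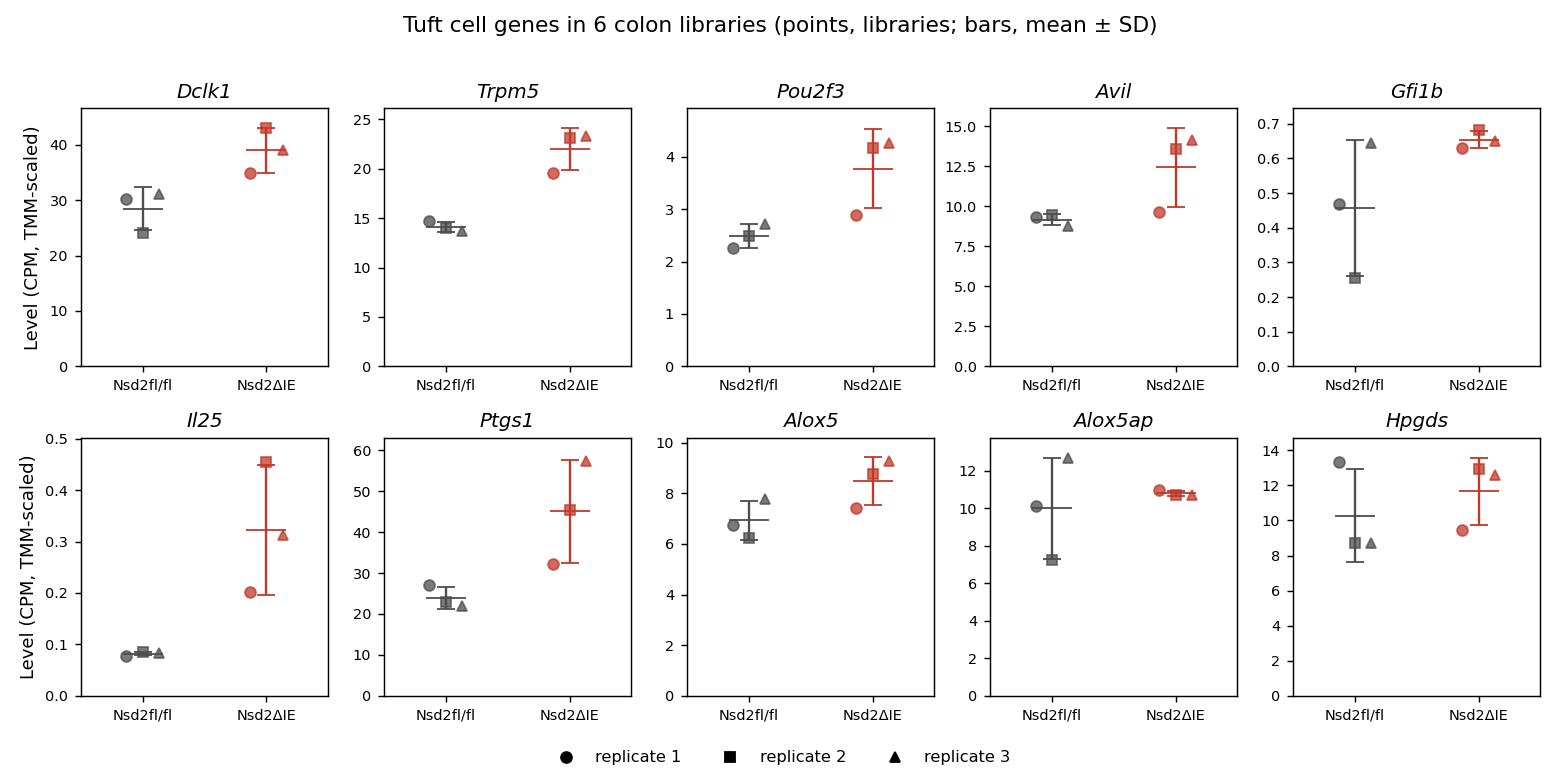
Level of each of the 10 tuft cell genes in CPM (vertical axes, linear and starting at 0) in the 3 Nsd2fl/fl and the 3 Nsd2ΔIE libraries, with 1 point per library, marked by replicate number, and bars for the mean ± SD. Trpm5 sits at 13.7 to 14.7 CPM in Nsd2fl/fl and at 19.6 to 23.3 CPM in Nsd2ΔIE, whereas the ranges of Gfi1b, Alox5, Alox5ap and Hpgds overlap between the groups.

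The transcription factors and structural genes that define the cell were examined first. Pou2f3 (chr9:43123927-43205755), the factor without which tuft cells do not form, was at 2.26, 2.49 and 2.72 CPM in Nsd2fl/fl and at 2.90, 4.16 and 4.27 CPM in Nsd2ΔIE replicates 1 to 3. The groups did not overlap, but Nsd2ΔIE replicate 1 lay close to the highest control. The log2 fold change of Pou2f3 was 0.60 (SE 0.244, 95% confidence interval 0.02 to 1.18, edgeR adjusted p = 0.433). Avil (chr10:127000065-127020994) encodes advillin, an actin-bundling protein of the tuft cell apex that sensory neurons also make. Avil was at 9.30, 9.44 and 8.76 CPM in Nsd2fl/fl and at 9.61, 13.6 and 14.1 CPM in Nsd2ΔIE. Replicate 1 of the Nsd2ΔIE group was again barely above the controls, and the interval of the log2 fold change of 0.44 (SE 0.186) ran from -0.003 to 0.88 (edgeR adjusted p = 0.451).

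Dclk1 (chr3:55242303-55539068), a microtubule-associated kinase that is the most used tuft cell marker in mouse, was at 30.2, 24.1 and 31.2 CPM in Nsd2fl/fl and at 34.97, 43.0 and 39.1 CPM in Nsd2ΔIE. All 3 Nsd2ΔIE values of Dclk1 were above the controls, with group means of 28.5 ± 3.83 and 39.0 ± 4.01 CPM (SD, n = 3 each). Its log2 fold change was 0.45 (SE 0.143, interval 0.11 to 0.79, edgeR adjusted p = 0.34). Gfi1b (chr2:28609450-28621982), a zinc finger repressor of the tuft lineage, rested on few reads. It had 18, 9 and 23 counts in Nsd2fl/fl and 25, 27 and 27 counts in Nsd2ΔIE, or 0.254 to 0.646 CPM against 0.631 to 0.681 CPM. The ranges of Gfi1b met, with the highest control above the lowest Nsd2ΔIE value, and the interval of its log2 fold change of 0.52 (SE 0.425) ran from -0.49 to 1.53, so a difference in Gfi1b was not detectable at this depth.

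For the chemosensory output, Trpm5 (chr7:143071529-143094642), the calcium-activated channel that depolarises the cell, was the member with the smallest p. It was at 14.7, 14.0 and 13.7 CPM in Nsd2fl/fl and at 19.6, 23.2 and 23.3 CPM in Nsd2ΔIE. The controls of Trpm5 were closely grouped (14.1 ± 0.531 CPM, n = 3) and the Nsd2ΔIE libraries all stood above them (22.02 ± 2.10 CPM, n = 3). The log2 fold change was 0.64 (SE 0.127, interval 0.34 to 0.94), a 1.56-fold higher level, with an adjusted p of 0.302 in edgeR. With DESeq2 the adjusted p of Trpm5 was 0.00496, and over all 20 alternative fits it ranged from 0.00496 to 0.99.

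Il25 (chr14:54932695-54935837), the cytokine of the tuft cell, was close to the limit of detection. It had 3, 3 and 3 counts in Nsd2fl/fl and 8, 18 and 13 counts in Nsd2ΔIE, where the upper limit of a true 0, set at 3 counts, equals 0.0723 to 0.0848 CPM. The 9 control reads and 39 Nsd2ΔIE reads give a ratio of 3.93 (95% interval 1.87 to 9.23, exact binomial, counting error only). Il25 did not pass the filter on low counts and was left out of the counts above. An exact permutation test over the 20 assignments of 3 against 3 libraries, two-sided, gave p = 0.1 for Il25, the smallest value this design allows.

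The 4 members of the eicosanoid branch were less alike. Ptgs1 (chr2:36216742-36258593) encodes COX-1, the constitutive cyclooxygenase that tuft cells use for prostaglandin synthesis, and it was at 27.0, 23.0 and 21.9 CPM in Nsd2fl/fl and at 32.3, 45.4 and 57.4 CPM in Nsd2ΔIE. The Nsd2ΔIE values of Ptgs1 were all higher but widely spread, with means of 24.0 ± 2.70 and 45.0 ± 12.6 CPM (SD, n = 3 each). This was the highest fold among the 9 tested members, 1.88-fold (log2 fold change 0.91, SE 0.218, interval 0.39 to 1.43, edgeR adjusted p = 0.302). With DESeq2 its adjusted p was 0.0175, and the range over the 20 alternatives was 0.0175 to 0.99.

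Hpgds (chr6:65117293-65144981), the hematopoietic synthase that turns prostaglandin H2 into prostaglandin D2, was at 13.3, 8.73 and 8.73 CPM in Nsd2fl/fl and at 9.46, 12.9 and 12.6 CPM in Nsd2ΔIE. The highest value of Hpgds was that of a control, and the groups overlapped (log2 fold change 0.18, SE 0.231, interval -0.37 to 0.73). Alox5 (chr6:116410071-116461178), the 5-lipoxygenase that starts leukotriene synthesis, was at 6.75, 6.25 and 7.78 CPM against 7.42, 8.76 and 9.28 CPM, a log2 fold change of 0.29 (SE 0.175, interval -0.12 to 0.71). Alox5ap (chr5:149265004-149288153) encodes FLAP, which presents arachidonic acid to 5-lipoxygenase. It was at 10.1, 7.26 and 12.7 CPM against 10.97, 10.7 and 10.7 CPM. The controls of Alox5ap lay on both sides of the Nsd2ΔIE libraries, and the log2 fold change of 0.11 (SE 0.219, interval -0.41 to 0.63) became -0.07 without Nsd2fl/fl replicate 2. Adjusted p-values of Hpgds, Alox5 and Alox5ap were 0.794, 0.591 and 0.871 in edgeR.

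Levels were then compared between members per length, using FPKM, in which reads are divided by gene length and library total. In Nsd2fl/fl, Alox5ap had the highest mean level (9.46 ± 2.59 FPKM, n = 3), followed by Ptgs1 (4.70 ± 0.768 FPKM), and each of these was separated from the next member. Trpm5, Hpgds, Avil, Alox5 and Dclk1 followed at 2.49 to 1.98 FPKM, and the ranges of neighbours in this run overlapped. Pou2f3 (0.835 FPKM), Gfi1b (0.240 FPKM) and Il25 (0.0739 FPKM) came last, each separated from its neighbour. In Nsd2ΔIE, Alox5ap, Ptgs1 and Trpm5 again held the first 3 ranks and Pou2f3, Gfi1b and Il25 the last 3, but Alox5ap (11.1 ± 0.271 FPKM) and Ptgs1 (9.65 ± 2.94 FPKM) overlapped, as did Gfi1b (0.375 FPKM) and Il25 (0.317 FPKM). The high rank of Alox5ap holds for the tissue, in which myeloid cells also make it.

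**Figure D2:**
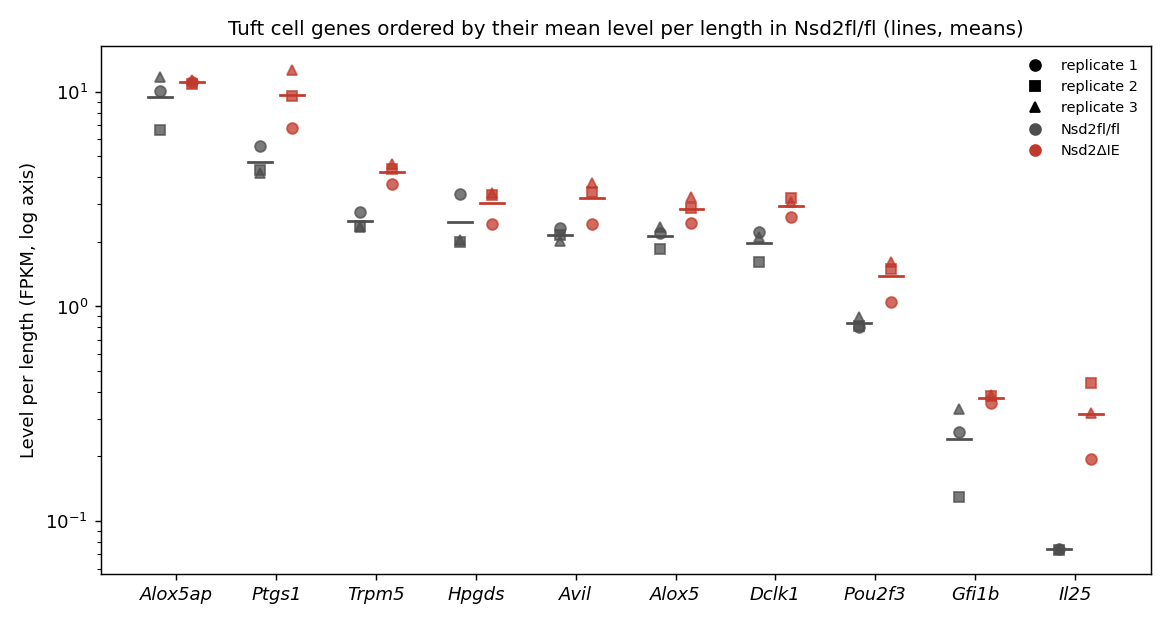
Level per length of the 10 tuft cell genes in FPKM (vertical axis, log scale), ordered by their mean in Nsd2fl/fl, with 1 point per library and a line for the mean of each group. Mean levels in Nsd2fl/fl run from 9.46 FPKM for Alox5ap to 0.0739 FPKM for Il25.

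The differences were also read within the split marked by Hoxb13. Among the 3 libraries with high Hoxb13 (2 controls, 1 Nsd2ΔIE), the log2 difference was 0.46 for Trpm5, 0.41 for Ptgs1, 0.22 for Pou2f3 and 0.19 for Dclk1, whereas Alox5ap and Hpgds were at -0.04 and -0.19. Among the 3 with low Hoxb13 (1 control, 2 Nsd2ΔIE), it was 0.73 for Trpm5, 1.15 for Ptgs1, 0.75 for Pou2f3 and 0.77 for Dclk1, and 9 of the 9 tested members were higher in Nsd2ΔIE. Trpm5, Ptgs1, Pou2f3, Dclk1, Avil, Gfi1b and Alox5 thus had the same sign on both sides. For Trpm5, Ptgs1, Pou2f3, Dclk1 and Avil this sign was fixed in advance, because every Nsd2ΔIE library lay above every Nsd2fl/fl library. The difference was smaller on the high side, at 0.09 for Avil and 0.03 for Alox5. It rests on a single Nsd2ΔIE library there, and on a single Nsd2fl/fl library on the low side. With 1 library in an arm, the sides were not tested against each other.

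To place the 10 members among other genes of the same cell, 27 further tuft cell markers were examined. All of them passed the filter on low counts, although Sucnr1 had as few as 1 count in a library. Their median log2 fold change was 0.39, with 18 of 27 above 0 and 9 below, down to -0.62. The 9 below were Lrmp (-0.62), Sucnr1 (-0.39), Spib (-0.14), Espn (-0.10), Inpp5d, Plcg2, Cwh43, Ptpn18 and Il17rb, all with overlapping groups. Lrmp was at 34.7, 8.53 and 32.2 CPM in Nsd2fl/fl and at 25.0, 11.1 and 13.0 CPM in Nsd2ΔIE. The groups did not overlap for 9 of 27 with the higher level in Nsd2ΔIE, and for 0 with the lower, beside 11.4% and 7.28% of all genes. Unadjusted p-values under 0.05 were found for 3 of 27, beside 8.15% of all genes, and after adjustment 0 passed with edgeR or limma-voom and 1, Sh2d7, with DESeq2. Sh2d7, which encodes an SH2-domain protein, was at 9.38, 10.1 and 10.9 CPM in Nsd2fl/fl and at 14.2, 15.7 and 16.1 CPM in Nsd2ΔIE (log2 fold change 0.60, SE 0.137, edgeR adjusted p = 0.302). Krt23, a keratin, was at 6.29, 4.61 and 4.91 CPM against 7.95, 7.60 and 8.29 CPM (0.59, SE 0.186), and Sh2d6 had a log2 fold change of 0.55 with overlapping groups. The other markers without overlap were Bmx, Fyb, Matk, Ltc4s, Hmx3, Chat and Itprid1, with log2 fold changes of 0.25 (Fyb) to 0.84 (Itprid1). Chat is used by enteric neurons as well. Il17rb, the IL-25 receptor subunit that tuft cells also carry, was at 3.28 to 4.59 CPM in Nsd2ΔIE and 3.61 to 4.804 CPM in Nsd2fl/fl (log2 fold change -0.04, SE 0.229).

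Of the taste signalling genes listed beside Trpm5, 10 were tested, with a median log2 fold change of -0.00387, 5 above 0 and 5 below. Not all of them are steps upstream of Trpm5, and they included Trpm4 (-0.03, 99.5 to 270 CPM), Gnb1 (-0.18) and Itpr2 (0.02). At an unadjusted p under 0.05, 2 of the 10 were higher and 1 lower, beside 8.15% and 2.96% of all genes. After adjustment 0 passed with edgeR, DESeq2 or limma-voom. Gnat3, the G protein alpha subunit gustducin, was at 2.03, 1.95 and 3.06 CPM in Nsd2fl/fl and at 4.29, 3.71 and 3.74 CPM in Nsd2ΔIE (log2 fold change 0.74, SE 0.259, edgeR adjusted p = 0.379). Ffar3, a receptor for short-chain fatty acids, was at 1.19 to 1.66 CPM against 1.99 to 3.04 CPM (0.80, SE 0.289). Plcb2, the phospholipase of the cascade, did not overlap between the groups (6.91 to 8.76 against 9.56 to 10.5 CPM), with a log2 fold change of 0.31 (SE 0.159). Itpr3, the calcium release channel that many epithelial cells use, ran the other way, at 174 to 224 CPM against 137 to 179 CPM (log2 fold change -0.38, SE 0.155). The gamma subunit Gng13 had 1, 6 and 4 counts in Nsd2fl/fl and 4, 12 and 7 counts in Nsd2ΔIE, a ratio of 1.90 (95% interval 0.888 to 4.31, counting error only). Gnb3, the beta subunit of the same complex, chosen after its values were seen, had 1, 1 and 3 counts against 5, 20 and 20 counts, a ratio of 8.16 (3.25 to 26.3).

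The partners of Alox5 and Alox5ap gave a mixed picture. Of 15 leukotriene pathway genes tested, the groups did not overlap for 3 with the higher and 1 with the lower level in Nsd2ΔIE, beside 11.4% and 7.28% of all genes. An unadjusted p under 0.05 was found for 1 in each direction, beside 8.15% and 2.96%, and 0 passed after adjustment with edgeR, DESeq2 or limma-voom. Ltc4s, the leukotriene C4 synthase, was at 2.31, 2.94 and 3.09 CPM in Nsd2fl/fl and at 3.26, 4.04 and 3.62 CPM in Nsd2ΔIE (log2 fold change 0.39, SE 0.226). Lta4h, whose hydrolase leads to leukotriene B4 instead, was at 119, 121 and 122 CPM against 108, 103 and 97.8 CPM (log2 fold change -0.23, SE 0.0937, adjusted p = 0.44 in edgeR). For Alox15, another lipoxygenase, the log2 fold change was 0.73 (SE 0.284), and for Ggt5, which trims leukotriene C4, it was 0.42 (SE 0.2). Pla2g4a, the phospholipase that frees arachidonic acid for both branches, was at 69.7 to 82.1 CPM in Nsd2fl/fl and 69.7 to 82.9 CPM in Nsd2ΔIE, a log2 fold change of 0.02 (SE 0.115). Cysltr1, a receptor for cysteinyl leukotrienes, had a log2 fold change of 0.13 (SE 0.263).

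Around Ptgs1 and Hpgds, 15 prostanoid genes were tested, with a median log2 fold change of 0.43. At an unadjusted p under 0.05, 5 of 15 were higher in Nsd2ΔIE, beside 8.15% of all genes. After adjustment 0 passed with edgeR or limma-voom, and 2 (Ptgs2 and Ptgfr) with DESeq2. Ptgs2, the inducible cyclooxygenase COX-2, was at 3.58, 3.25 and 1.71 CPM in Nsd2fl/fl and at 5.45, 5.37 and 9.71 CPM in Nsd2ΔIE (log2 fold change 1.26, SE 0.374, edgeR adjusted p = 0.321). The other 4 were the prostacyclin synthase Ptgis (0.69) and the receptors Ptger2 (0.66), Ptgir (1.251) and Ptgfr (1.57), genes that muscle, vessel and stromal cells are known to use. The thromboxane receptor Tbxa2r (0.79) did not overlap either. Ptges, the inducible prostaglandin E synthase, was at 7.95 to 10.9 CPM in Nsd2fl/fl and at 5.96 to 7.72 CPM in Nsd2ΔIE (log2 fold change -0.46, SE 0.202). Hpgd, which inactivates prostaglandins, was at 179 to 364 CPM against 200 to 345 CPM (log2 fold change -0.01, SE 0.328), and Ptgdr2, the receptor through which prostaglandin D2 reaches type 2 lymphocytes, had 2, 3 and 5 counts against 4, 4 and 10 counts.

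**Figure D3:**
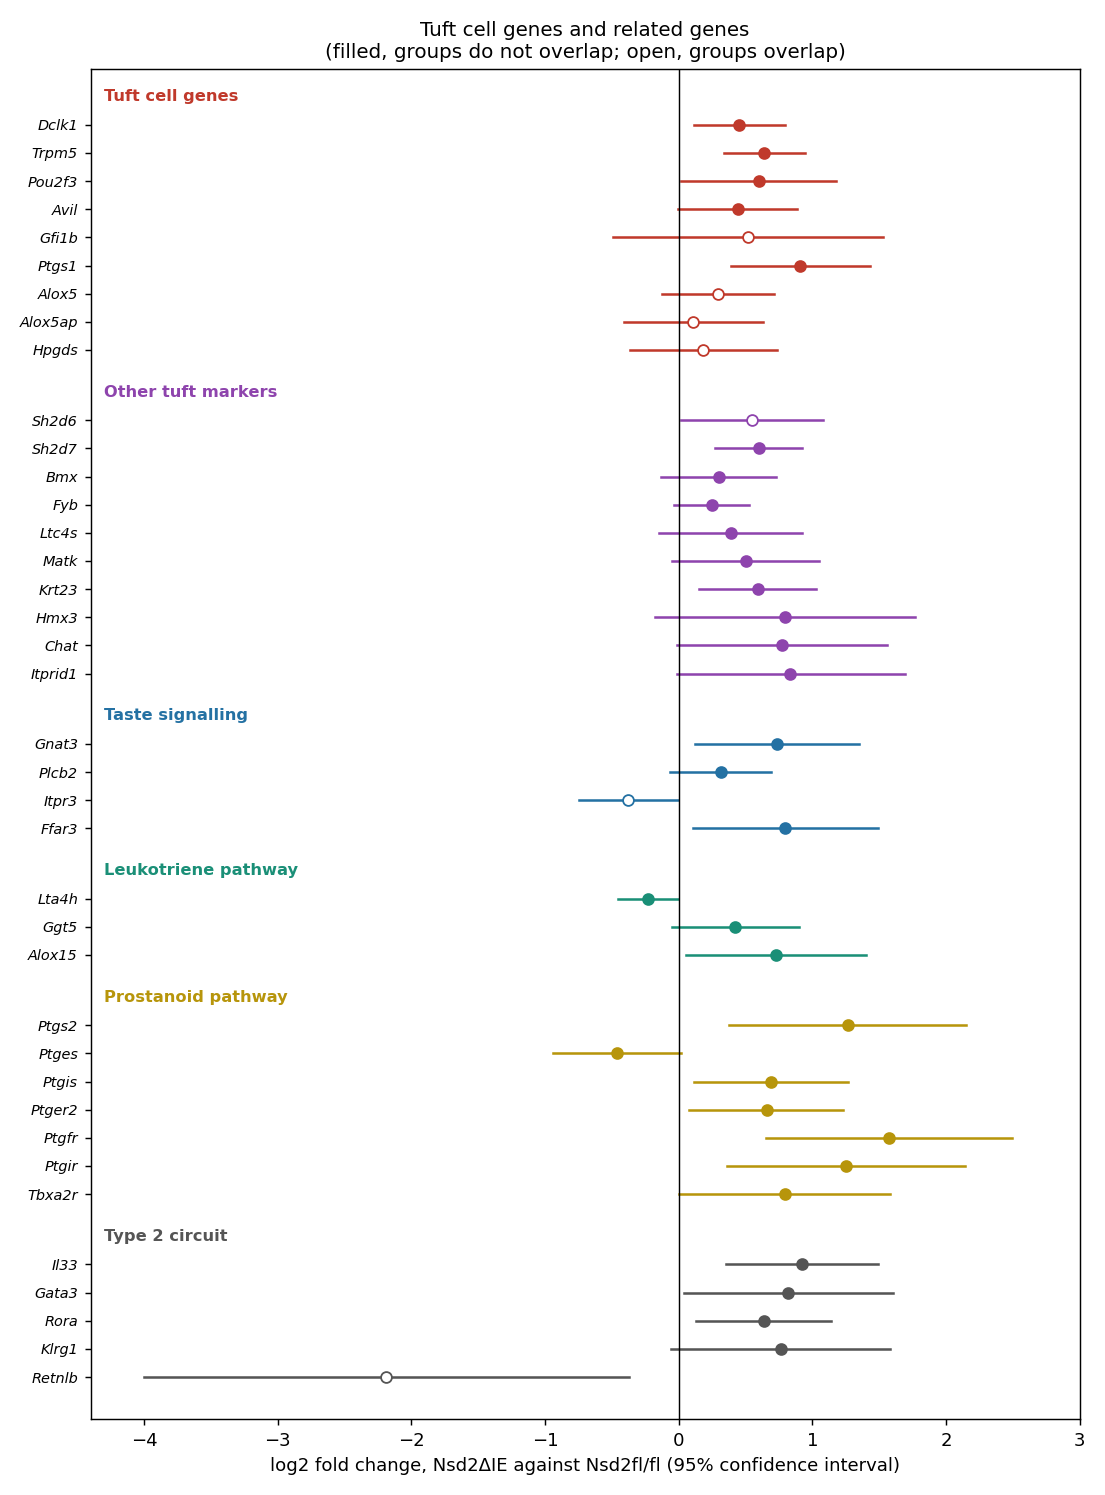
Log2 fold change of Nsd2ΔIE against Nsd2fl/fl (horizontal axis, points) with its 95% confidence interval (lines) for the 9 tested tuft cell genes and for those related genes with an unadjusted p under 0.05 or no overlap between groups, by list. Filled points mark genes whose groups do not overlap, Ptgs1 has the highest value of the tuft cell genes at 0.91, and Retnlb the lowest of all at -2.19.

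Il13, the cytokine that IL-25 elicits from lymphoid cells, was close to 0. It had 1, 0 and 5 counts in Nsd2fl/fl and 1, 0 and 3 counts in Nsd2ΔIE, so that a difference in Il13 was not detectable at this depth. Of 15 genes of the type 2 circuit tested, 4 were above 0 and 11 below, with a median log2 fold change of -0.13. In this list 3 were higher and 1 lower at an unadjusted p under 0.05, beside 8.15% and 2.96% of all genes. After adjustment 0 passed with edgeR or limma-voom, and 1 (Il33) with DESeq2. Il33, an alarmin of stromal and epithelial cells, was at 5.32, 7.60 and 4.69 CPM against 9.16, 12.7 and 11.52 CPM (log2 fold change 0.92, SE 0.239, edgeR adjusted p = 0.303). Gata3 and Rora, transcription factors of type 2 lymphoid cells that other cells also use, had log2 fold changes of 0.82 and 0.64, and Klrg1 of 0.76. Il1rl1 ran the other way, at 2.805, 22.69 and 27.72 CPM in Nsd2fl/fl and at 3.658, 6.989 and 8.605 CPM in Nsd2ΔIE. Its groups overlapped (log2 fold change -1.465, SE 0.761), as did those of Tslp (-0.60, SE 0.543). Il4ra, through which IL-13 signals, had a log2 fold change of -0.06 (SE 0.219). Retnlb, the goblet cell product RELMβ that IL-13 induces, was at 355, 949 and 2343 CPM in Nsd2fl/fl and at 184.8, 138.4 and 477.9 CPM in Nsd2ΔIE, with overlapping groups (log2 fold change -2.19, SE 0.763, edgeR adjusted p = 0.378).

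Since several members are made by other cells, marker lists of those cells were read in the same libraries. All 8 smooth muscle markers and all 8 enteric neuron markers were present in every library, and 7 and 8 of them had an unadjusted p under 0.05 with the higher level in Nsd2ΔIE, beside 8.15% of all genes. Their summed levels were 1403 to 4013 CPM in Nsd2fl/fl and 4987 to 10690 CPM in Nsd2ΔIE for smooth muscle, and 60.6 to 119 CPM against 152 to 187 CPM for enteric neurons. The 4 enteric glia markers (12.4 to 17.04 against 24.0 to 37.6 CPM) were also separated, and the median log2 fold changes of these lists, 1.22, 0.98 and 1.13, exceeded that of the tuft cell genes. The 10 epithelial markers, in contrast, summed to 10400 to 18190 CPM in Nsd2fl/fl and 10450 to 11590 CPM in Nsd2ΔIE, and their median log2 fold change was -0.31. Fibroblast markers summed to 1276 to 1552 CPM against 1359 to 1577 CPM, with 3 of 7 higher at an unadjusted p under 0.05 and a median log2 fold change of 0.04. Adipocyte markers summed to 26.0 to 46.1 CPM against 40.1 to 95.7 CPM, with 5 of 5 tested above 0, 1 of them at an unadjusted p under 0.05, and a median of 1.11. The part of these lists in the differences of Dclk1, Avil, Ptgs1 and the other members was not tested.

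Mast cell markers were low. Their 9 genes summed to 3.14 to 10.9 CPM in Nsd2fl/fl and 2.43 to 7.22 CPM in Nsd2ΔIE, with Ms4a2 at 0 in all 3 Nsd2ΔIE libraries and Mcpt4, Cma1 and Fcer1a at 0 in at least 1 library. The 7 neutrophil markers summed to 36.8 to 191 CPM against 5.27 to 115 CPM, with a median log2 fold change of -0.18 over the 3 tested. Ly6g alone was at 115, 32.4 and 186 CPM against 112, 0.833 and 6.60 CPM. S100a8, S100a9, Cxcr2 and Mmp8 were at 0 in at least 1 library and at 9 counts or fewer in every library. The 8 macrophage markers summed to 258 to 338 CPM against 323 to 345 CPM with a median log2 fold change of 0.15, and the 6 markers of megakaryocytes and erythroid cells, which share Gfi1b, to 19.6 to 31.7 CPM against 22.7 to 42.2 CPM with a median of 0.22.

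When the smooth muscle list was added to the fit as a covariate, the median log2 fold change of the 9 members was 0.20 and 1 of them, beside 1.75% of all genes, had an unadjusted p under 0.05 with the higher level in Nsd2ΔIE. With the enteric neuron list in its place the median was 0.07 and 0 had one, beside 1.26% of all genes, with 0 after adjustment in either fit. Dclk1 was at 0.20 and 0.07 and Trpm5 at 0.54 and 0.51 (log2 fold changes) in these fits, whereas Nsd2 was at -1.30 and -1.02. Both lists separate the groups completely. When the libraries were scaled to equal epithelial markers instead, which moved the median of all genes from -0.04 to 0.13, the median of the members was 0.60, and 2 members had an unadjusted p under 0.05, beside 5.93% of all genes.

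**Figure D4:**
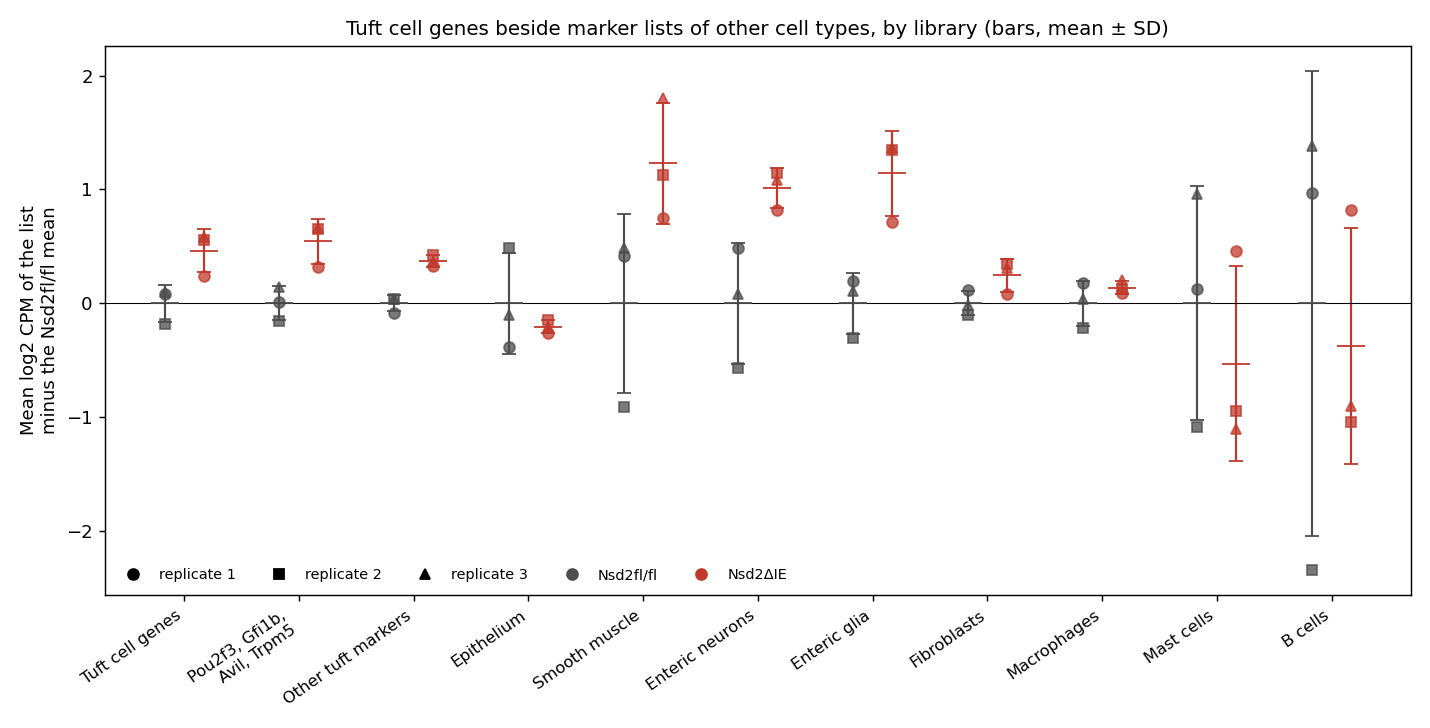
Mean log2 CPM of each marker list in each library, relative to the mean of the Nsd2fl/fl group (vertical axis, 0 is that mean), with points for libraries, marked by replicate number, and bars for the mean ± SD of 3 libraries. The tuft cell genes differ by 0.46 between the group means, the smooth muscle list by 1.23, the enteric neuron list by 1.02 and the epithelium list by -0.21.

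The mean pattern of Pou2f3, Gfi1b, Avil and Trpm5 over the 6 libraries served as a reference, although other cells also use Gfi1b and Avil. To find the genes most like it, 14358 genes with an average log2 CPM of at least 0 were ranked. The measure was the root mean square difference of their centred log2 CPM from the mean of these 4. The 8 nearest were Mir100hg (0.0357), Ptbp2 (0.0547), Cnn2 (0.0549), Ddr2 (0.063), Spn (0.065), Gfpt2 (0.0678), Eid1 (0.069) and Ift80 (0.0734), and 0 of them was on a tuft cell list. Mir100hg was at 3.82 to 4.61 CPM in Nsd2fl/fl and 5.12 to 7.09 CPM in Nsd2ΔIE. The members were left out of this ranking, in which the nearest of the other tuft markers was Sh2d7, at rank 32. By the same measure Dclk1 was at 0.0847, Alox5 at 0.133, Ptgs1 at 0.256, Hpgds at 0.276 and Alox5ap at 0.278. The 4 reference genes did not share a single pattern, with Pou2f3 at 0.109, Trpm5 at 0.111 and Avil at 0.146 but Gfi1b at 0.278 from their own mean. With 6 libraries in 2 groups, many genes share such a pattern, and the ranking is a description.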

How the data were processed

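Total RNA of colon was sequenced in 3 Nsd2fl/fl and 3 Nsd2ΔIE samples, grouped by their labels. The authors deposited whole-number read counts per gene and FPKM values per gene for each library. The submitters' processing notes name fastp, HISAT2, HTSeq, R 3.2.0 and mm10, and the annotation, the strand setting and other versions are not given in the sources used here. Without strand, reads in exons shared with an overlapping gene cannot be assigned with certainty. By GENCODE, exons of Dclk1, Trpm5, Avil, Ptgs1 and Alox5ap share 87, 220, 165, 148 and 189 bases with a gene of the opposite strand (Dclk1 a further 27).

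The two-sided quasi-likelihood F test of edgeR 4.0.16 (R 4.3.3) was run on the counts with filterByExpr, TMM factors and no covariates. It covered 16347 genes, with Benjamini-Hochberg adjustment across them. Each SE was obtained from the log2 fold change and its F statistic. CPM was computed from the counts, and log2 CPM with a prior count of 2. The biological coefficient of variation was 0.311. At 38041832 to 38604680 counts per library, counting error was largest for Gfi1b and Il25, and not small for Pou2f3 (87 to 177 counts). The closest libraries of the 2 groups, 97 and 115 counts in Pou2f3 and 334 and 381 in Avil, were not separated beyond counting error. Intervals on counts cover counting error only. The labels do not say that replicates were separate animals, so p-values measure the spread between these samples. Over 15 pairs of libraries the chi-square statistic per degree of freedom was at least 35.5, so all 6 libraries differed beyond sampling noise.

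The members, the gene lists and the tests were chosen with earlier results of these data known. Named genes are the members, their partner genes, genes of the related lists with an unadjusted p under 0.05 or no overlap, and the 8 genes nearest in pattern. Further genes of these lists were named after their values were seen, to give the opposite direction or the make-up of a list. Coordinates of genes are from RefSeq for GRCm38.p6, the same build as mm10. The fit was tested on simulated data. Alternatives were other scalings, no filter, DESeq2 1.42.0, limma 3.58.1 on voom weights and on FPKM with a pseudocount of 1 or 0.1, a replicate block, covariates and leaving out each library.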

Additional observations from a re-analysis of the deposited data

How the results depend on the processing

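The fits were repeated under 20 alternatives, 17 of them planned. Trpm5, Ptgs1, Dclk1, Pou2f3, Avil and Alox5 kept a positive log2 fold change under all 20, with an unadjusted p under 0.05 in 19, 18, 16, 8, 7 and 0 of them. Their sizes still moved: with the smooth muscle and the enteric neuron covariate, Dclk1 was at 0.203 and 0.069, Alox5 at 0.0431 and 0.0716, Avil at 0.299 and 0.313, and Ptgs1 at 0.55 and 0.549. With DESeq2, 2 members (Trpm5 and Ptgs1) and 455 genes in all had an adjusted p under 0.05, against 0 and 5 with edgeR, and Nsd2 had an adjusted p of 3.88e-07. Leaving out each library in turn gave 2 to 6 members with an unadjusted p under 0.05 (2 without Nsd2ΔIE replicate 2, against 4). The 6, found without Nsd2ΔIE replicate 1, included Il25, which the main fit had left out as too low. Among the 9 members of the main fit, 5 had such a p there with the higher level, beside 1240 of the 16347 genes. Without any single Nsd2fl/fl library, 3 of these 9 had one, or 4 members with Il25. Beside these 3 stood 1704, 1525 and 902 of the 16347 genes, without Nsd2fl/fl replicates 1, 2 and 3. Without Nsd2ΔIE replicate 3, 3 of the 9 had one, beside 666 genes, and without replicate 2 the 2 stood beside 789. The fits without 1 library gave 0 members after adjustment, 3 to 5 genes in all (3 without Nsd2fl/fl replicate 1 or 3) and medians of 0.346 to 0.549. Scaling to the epithelium list, the smooth muscle covariate and the enteric neuron covariate, all chosen after seeing the data, gave 2, 1 and 0 members with an unadjusted p under 0.05, the covariates with medians of 0.203 and 0.0716, and the neuron covariate left 1 gene in all. Alox5ap turned to -0.0114 with the epithelium covariate, -0.0744 without Nsd2fl/fl replicate 2 (up to 0.314 without Nsd2fl/fl replicate 3), -0.248 with the smooth muscle covariate and -0.343 with the neuron covariate. Gfi1b turned to -0.0781 and -0.291, and Hpgds to -0.139 and -0.426, with the muscle and neuron covariates. The cause was not tested. Without TMM, on library totals alone, the median of all genes moved from -0.0415 to 0.0857 and that of the members to 0.577. Same-numbered samples did not deviate together in every pair (correlations 0.501, 0.643 and -0.166), so the numbers were not taken as pairs. With the replicate block 3 members were higher at an unadjusted p under 0.05, beside 1488 of the 16347 genes. After adjustment 0 members passed in that fit, and the median was 0.457. Depth limits Gfi1b, Il25, Gng13, Il13 and Ptgdr2, and to a lesser degree Pou2f3.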
